A study of Mus musculus with 6 samples.

Results

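The transcripts of 30 genes of cholesterol and fatty acid synthesis were examined in multipotent progenitors of mouse bone marrow. The members were listed by gene symbol, with earlier results of these data known, and each was read from the array feature that the platform's probe-to-gene table gives for it. Of the 30 genes, 29 were measured, among 19938 genes with a feature of their own, and the expression of Acat2 is not analysed here. They fall into 17 measured enzymes of sterol synthesis, 8 enzymes of fatty acid synthesis, and 4 regulators and carriers. The 6 samples comprised 3 labelled Lxn-/-, from mice in which exons 2 to 4 of the latexin gene are deleted and the protein is lacking, and 3 WT samples with an intact gene. All mice were C57BL/6, 8 to 12 weeks of age and labelled female, with no treatment named. Each sample was a pool of 10 to 20 mice with nearly 100000 sorted cells, so a single animal's value cannot be read from it. The gate was lineage-negative, Sca1-positive and c-Kit-positive cells that carry CD34 and the receptor written as Flt2 in the series text, which elsewhere calls the cells long-term stem cells. How the deletion was made and in which cells it acts were not stated in the sources used here. The comparison asks which transcripts of these pathways differ when latexin, an inhibitor of carboxypeptidases, is missing. The values are log2 expression values after RMA, and the number of arrays limits their precision.

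Cells build cholesterol from acetyl-CoA through mevalonate, farnesyl diphosphate, squalene and lanosterol. Fatty acids come from the same acetyl-CoA through malonyl-CoA, followed by elongation and desaturation. Genes of both routes are switched on by the sterol regulatory element-binding proteins (SREBPs), membrane-bound transcription factors that the INSIG proteins hold in the endoplasmic reticulum while sterol is plentiful. When sterol runs low, SREBP is cut free and moves to the nucleus, so the enzymes of the route are known for being expressed together. Dividing blood progenitors need both products for new membrane.

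Some facts of the whole series bear on these values. Lxn itself had log2 values of 8.03, 8.53 and 8.61 in arrays 1, 2 and 3 labelled Lxn-/-, against 8.56, 8.70 and 8.58 in the WT arrays, so 1 of the 3 lay within the WT range and the label was not checked by it. Whether its probes lie in the deleted exons was not stated there either. Arrays 1 and 3 labelled Lxn-/- also had Xist at 6.86 and 5.85, against 13.17 in array 2 and at least 13.13 in WT. Their Y-linked Eif2s3y, Kdm5d and Uty were at 7.88 or more, while the other 4 arrays were at 5.38 or less, which goes against the label female. Results below are therefore also given without these arrays where they matter. The gate markers Kit, Flt3 and Cd34 lay between 11.48 and 13.48 in every array, and Ly6a is not analysed here. Kit was 11.48 in array 1 labelled Lxn-/- and between 12.05 and 12.19 in the other 5 arrays. In pools of sorted cells, fewer cells of a type and less RNA per cell cannot be told apart.

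None of the 29 measured genes differed between the arrays labelled Lxn-/- and WT after adjustment over all 23410 tested features. The adjusted p values of the members in limma with Benjamini-Hochberg adjustment ran from 0.340 to 0.994, and 0 members passed 0.05, as did 0% of all features. Without array 2 labelled Lxn-/- 145 features passed, again with 0 members among them. Only the arrays with Y-linked signal then stood for Lxn-/-, so the label and that signal cannot be told apart there. At an unadjusted p under 0.05 there was 1 member, Ebp, against 14.3% of all features. The mean was higher in the arrays labelled Lxn-/- for 22 of the 29, against 42.2% of all features and 69.3% of the features above the median level, where 25 of the members lie. The 22 became 13 when the arrays were quantile-normalized again, 14 without both arrays with Y-linked signal and 13 without WT array 3. No direction can therefore be given for the genes as a group.

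For the feature that stands for each gene, all 29 members had a 95% interval of the difference inside 1.5-fold in either direction, without adjustment for their number, against 89.9% of all features. The other features of Idi1 and Acaca had intervals that reached 0.61 and 0.63, past that limit. Over the alternatives 24 to 29 members lay inside it, with 24 when both arrays with Y-linked signal were left out. The lowest bound was -0.45 for Mvd and the highest 0.56 for Idi1, where 1.5-fold is 0.585 on the log2 scale. The fitted differences themselves ran from -0.19 for Srebf2 to 0.26 for Ebp. The median difference was 0.05 for the sterol enzymes, 0.08 for the fatty acid enzymes and -0.06 for the regulators and carrier, beside -0.04 for all tested features and 0.07 for those above the median level. The sterol median turned to -0.02 with quantile normalization, to -0.03 without WT array 3 and to -0.04 without both arrays with Y-linked signal. That of the regulators and carrier turned to 0.04 without WT array 2.

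**Figure D1:**
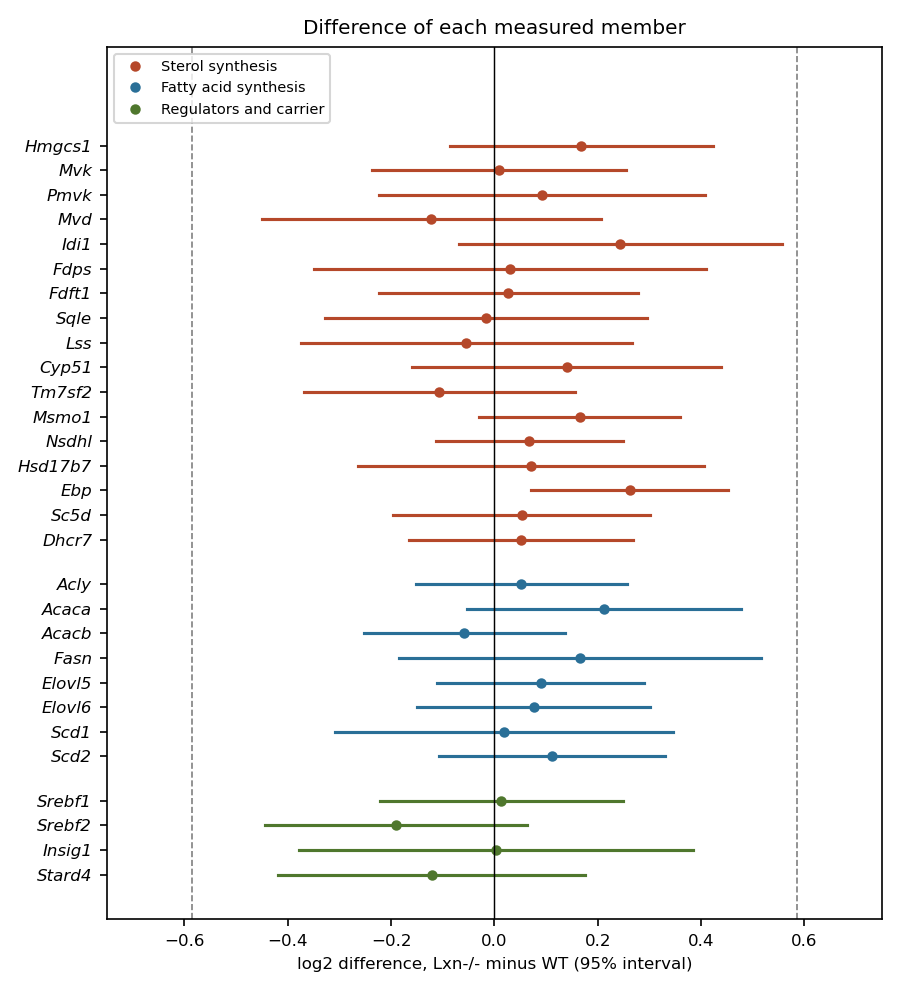
Log2 difference, arrays labelled Lxn-/- minus WT, of the 29 measured genes, with 95% intervals from limma (3 arrays per group), coloured by role and ordered along each pathway. Dashed lines mark 1.5-fold, which no interval drawn here reaches (the other features of Idi1 and Acaca, not drawn, pass it), and only the interval of Ebp lies wholly to one side of 0.

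Groups that do not overlap were seen for 3 of the 29 members, a lower share than the 21.6% of all features. All 3 encode enzymes that act on the sterol ring after lanosterol has formed. So do Cyp51, Tm7sf2, Hsd17b7, Sc5d and Dhcr7, whose groups overlapped. Ebp encodes the sterol isomerase that shifts the double bond of the B ring, and Msmo1 the oxidase that starts removal of the methyl groups at carbon 4. Nsdhl encodes the dehydrogenase that follows in the same removal. Both Ebp and Nsdhl lie on the X chromosome.

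Ebp had the smallest p of the members. Its log2 values were 9.69, 9.77 and 9.65 in the arrays labelled Lxn-/-, against 9.41, 9.43 and 9.50 in the WT arrays. The 3 values labelled Lxn-/- all lay above the 3 WT values, and the highest came from array 2, the one with Xist signal. The difference of 0.26 (SE 0.08), a 1.20-fold higher mean, had an unadjusted p of 0.0128 and an adjusted p of 0.340 in limma and did not pass. Without both arrays with Y-linked signal it was 0.32, with an adjusted p of 0.352. Over the 15 alternatives the difference ran from 0.17 to 0.32 and the adjusted p from 0.125 to 0.645. The 793 features of single X-linked genes had a median difference of -0.08, and 35.2% of them had a higher mean in the arrays labelled Lxn-/-.

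Msmo1 and Nsdhl differed by less. Msmo1 was 8.84, 8.99 and 8.95 in the arrays labelled Lxn-/-, against 8.72, 8.79 and 8.77 in WT, a difference of 0.16 (SE 0.09) with an adjusted p of 0.380 in limma. The gap between the groups was smaller than the range within the arrays labelled Lxn-/-. Nsdhl was 9.68, 9.63 and 9.66 in the arrays labelled Lxn-/-, against 9.58, 9.60 and 9.59 in WT. Its WT values were the closest together of any member (SD 0.0074, n = 3). The difference of 0.07 (SE 0.08) had an adjusted p of 0.661 in limma and turned to -0.02 with quantile normalization. Without both arrays with Y-linked signal it was 0.04.

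SREBPs are known to act at promoters together with NF-Y, and the windows below are shown because they belong to the 3 members whose groups did not overlap and to the 1 member with a sterol regulatory element match. Windows ran from 250 bases before to 50 bases after a start in RefSeq's GRCm38.p6 table. Results are given for 24 of the 30 genes, Acat2 among them, with 29 windows in all. No window was found for Fdft1, Fdps, Scd1, Scd2 and Sqle, and the promoter of Stard4 is not reported here. The sterol regulatory element was searched as TCACNCCAC on both strands, and NF-Y's site as CCAAT on both strands. TCACNCCAC was found in 1 of the 29 windows, that of Hmgcs1, against 1.24% of all 32851 promoter windows. CCAAT was found in 22 of the 29, or 75.9%, against 37.4% of all windows. By gene it was found in 21 of the 24, some of which have several windows, and no share over all genes was computed. The E-box CACGTG, to which SREBP-1 also binds, was found in 5 of the 29, or 17.2%, against 7.15%. The motifs do not overlap each other in the windows printed. Capitals mark CCAAT or its reverse complement, and in Hmgcs1 also the 9 bases of the sterol regulatory element match, whose first base lies 137 bases before the start. The windows lie at chrX:8193463-8193762 (minus strand) for Ebp, chr8:64733529-64733828 (minus strand) for Msmo1, chrX:72918271-72918570 (plus strand) for Nsdhl and chr13:119690101-119690400 (plus strand) for Hmgcs1.
Ebp: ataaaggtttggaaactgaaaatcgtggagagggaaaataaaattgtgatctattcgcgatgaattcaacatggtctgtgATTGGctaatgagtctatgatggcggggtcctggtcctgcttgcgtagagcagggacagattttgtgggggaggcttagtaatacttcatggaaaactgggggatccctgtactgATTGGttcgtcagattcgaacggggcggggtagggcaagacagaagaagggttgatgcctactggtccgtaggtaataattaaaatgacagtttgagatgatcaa
Msmo1: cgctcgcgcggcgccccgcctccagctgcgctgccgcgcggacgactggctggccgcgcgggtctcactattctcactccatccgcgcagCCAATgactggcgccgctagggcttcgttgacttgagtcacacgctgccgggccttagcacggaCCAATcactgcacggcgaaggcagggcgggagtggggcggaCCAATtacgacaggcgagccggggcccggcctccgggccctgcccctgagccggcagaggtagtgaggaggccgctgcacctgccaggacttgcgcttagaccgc
Nsdhl: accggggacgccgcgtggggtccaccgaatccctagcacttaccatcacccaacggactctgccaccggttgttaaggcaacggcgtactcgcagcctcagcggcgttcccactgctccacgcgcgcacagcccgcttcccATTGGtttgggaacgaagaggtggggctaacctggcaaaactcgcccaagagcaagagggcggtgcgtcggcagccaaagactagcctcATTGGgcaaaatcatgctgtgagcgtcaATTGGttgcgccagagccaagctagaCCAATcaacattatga
Hmgcs1: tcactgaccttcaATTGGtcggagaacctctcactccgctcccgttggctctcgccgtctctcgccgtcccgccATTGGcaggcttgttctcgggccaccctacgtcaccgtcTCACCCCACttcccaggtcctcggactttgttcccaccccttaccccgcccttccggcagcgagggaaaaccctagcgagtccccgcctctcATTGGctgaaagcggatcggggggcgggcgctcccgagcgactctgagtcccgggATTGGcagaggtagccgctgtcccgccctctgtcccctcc
CCAAT or its reverse complement occurs 2 times in the window of Ebp, 3 times in that of Msmo1, and 4 times each in those of Nsdhl and Hmgcs1. A match of these letters is a description and was not tested as a binding site.

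**Figure D2:**
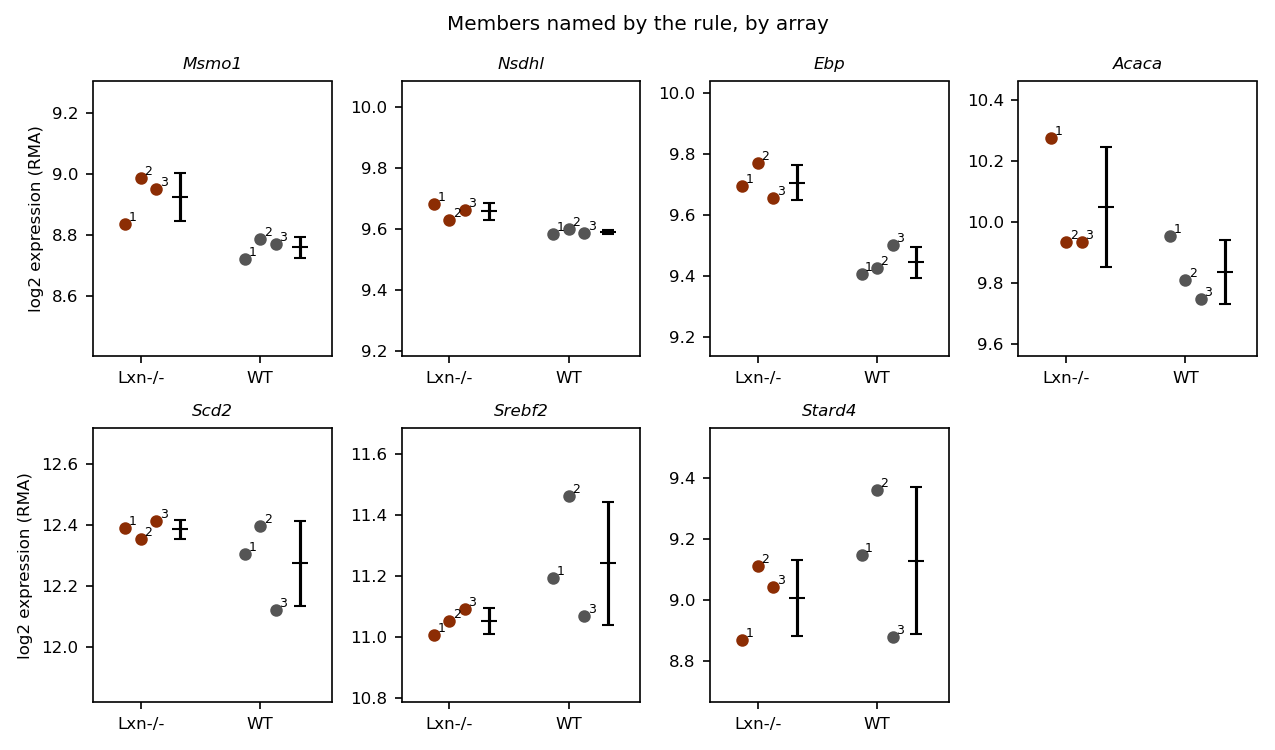
Log2 expression of Msmo1, Nsdhl, Ebp, Acaca, Scd2, Srebf2 and Stard4 in each array, numbered by replicate, with mean and SD (n = 3) beside each group; every panel spans the same 0.9 log2 units. The groups are apart in Msmo1, Nsdhl and Ebp and overlap in the other 4 genes.

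In the part of the sterol route before squalene, 6 of 7 measured enzymes had a higher mean in the arrays labelled Lxn-/- and 0 passed. A higher mean was seen for 42.2% of all features and 69.3% of those above the median level. Hmgcs1 encodes HMG-CoA synthase, which makes the substrate of the rate-limiting reductase. It was 9.26, 9.27 and 9.32 in the arrays labelled Lxn-/-, against 9.01, 9.35 and 8.99 in WT, a difference of 0.17 (SE 0.11). The 3 values labelled Lxn-/- were close together and lay inside the wide WT range. Without WT array 2 the difference was 0.29, with an adjusted p of 0.592 in limma. The kinases of mevalonate and phosphomevalonate, Mvk and Pmvk, had differences of 0.01 (SE 0.11) and 0.09 (SE 0.14). Mvd, the decarboxylase that follows them, had the lowest fitted difference of the sterol enzymes, -0.12 (SE 0.14), with 8.28, 8.06 and 7.98 in the arrays labelled Lxn-/- against 8.07, 8.54 and 8.07 in WT. WT array 2 held the highest of these 6 values of Mvd.

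Idi1, the isomerase of isopentenyl diphosphate, had the second largest difference of the members. Its feature of higher mean was 8.88, 8.65 and 9.09 in the arrays labelled Lxn-/-, against 8.71, 8.76 and 8.41 in WT, a difference of 0.24 (SE 0.14, adjusted p of 0.404 in limma). The other Idi1 feature gave 0.29 (SE 0.14, adjusted p of 0.367). In both features array 3 labelled Lxn-/- was the highest and array 2 lay within the WT range. Without array 2, which leaves only arrays with Y-linked signal under that label, the difference was 0.36 (adjusted p of 0.382 in limma). Fdps and Fdft1, the synthases of farnesyl diphosphate and squalene, had differences of 0.03 (SE 0.17) and 0.03 (SE 0.11). Fdps was 10.30, 9.72 and 10.00 in the arrays labelled Lxn-/-, against 9.83, 10.26 and 9.84 in WT, and the lowest and the highest of the 6 values were both in arrays labelled Lxn-/-. The other feature of Fdft1 had a difference of 0.06 (SE 0.11).

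After squalene, 7 of 10 measured enzymes had a higher mean in the arrays labelled Lxn-/-, Ebp, Msmo1 and Nsdhl among them. This is near the 69.3% of features above the median level, beside 42.2% of all features. Sqle, the epoxidase that is a second point of control, was 9.41, 9.26 and 9.32 in the arrays labelled Lxn-/-, against 9.27, 9.66 and 9.12 in WT. The difference was -0.02 (SE 0.14), and the highest and the lowest value were both WT. Lss, which folds squalene epoxide into lanosterol, was 8.68, 8.57 and 8.49 in the arrays labelled Lxn-/-, against 8.56, 8.95 and 8.39 in WT, a difference of -0.05 (SE 0.14). Cyp51, the demethylase that acts on lanosterol, had a difference of 0.14 (SE 0.13). The sterol reductase gene Tm7sf2 had -0.11 (SE 0.12). Both groups of these genes overlapped. The remaining enzymes differed by at most 0.07, with 0.07 (SE 0.15) for the ketoreductase gene Hsd17b7, 0.05 (SE 0.11) for the desaturase gene Sc5d, and 0.05 (SE 0.10) for Dhcr7, a reductase of the last steps. Of all 17 sterol enzymes, 6 had all 3 values labelled Lxn-/- inside the WT range, or 35.3%, against 10.1% of all features.

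Of the 8 fatty acid enzymes, 7 had a higher mean in the arrays labelled Lxn-/-, and 0 had an unadjusted p under 0.05. The share with a higher mean was 42.2% of all features and 69.3% of those above the median level. Acaca, the acetyl-CoA carboxylase of the cytosol, had the largest statistic. Its feature of higher mean was 10.27, 9.93 and 9.94 in the arrays labelled Lxn-/-, against 9.95, 9.81 and 9.75 in WT, a difference of 0.21 (SE 0.12, adjusted p of 0.398 in limma). The other Acaca feature was 9.41, 8.996 and 9.10 in the arrays labelled Lxn-/-, against 9.07, 8.79 and 8.69 in WT. Its difference of 0.32 (SE 0.14) had an unadjusted p of 0.0457 and an adjusted p of 0.344, so the 2 features fall on either side of the unadjusted threshold. In both, array 1 labelled Lxn-/- was the highest, and without it the difference of the first feature was 0.10.

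Fasn, the fatty acid synthase, was also highest in array 1 labelled Lxn-/-. It was 11.62, 11.15 and 11.11 in the arrays labelled Lxn-/-, against 11.30, 11.16 and 10.91 in WT, a difference of 0.17 (SE 0.15) in which arrays 2 and 3 labelled Lxn-/- lay inside the WT range. Acly, which supplies cytosolic acetyl-CoA from citrate, was 11.00, 10.85 and 10.79 in the arrays labelled Lxn-/-, against 10.86, 10.83 and 10.80 in WT, again with array 1 highest. Acacb, the carboxylase of the mitochondrial surface, was the 1 enzyme with a lower mean, -0.06 (SE 0.09).

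The stearoyl-CoA desaturase Scd2 was 12.39, 12.35 and 12.41 in the arrays labelled Lxn-/-, against 12.30, 12.40 and 12.12 in WT, a difference of 0.11 (SE 0.10, adjusted p of 0.553 in limma). Only WT arrays 1 and 3 lay below all values labelled Lxn-/-, and without WT array 3 the difference was 0.03. Its relative Scd1, the main form in liver, was 6.55, 6.26 and 6.46 in the arrays labelled Lxn-/-, against 6.27, 6.72 and 6.23 in WT, with a mean over the 6 arrays below the median of the tested features (7.77). The elongases Elovl5, which acts on polyunsaturated chains, and Elovl6, which lengthens palmitate, had differences of 0.09 (SE 0.09) and 0.08 (SE 0.10). Elovl6 was 10.75, 10.79 and 10.77 in the arrays labelled Lxn-/-, a tighter set than 10.75, 10.81 and 10.52 in WT.

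Among the regulators, Srebf2, which encodes the SREBP that acts chiefly on sterol genes, had the lowest fitted difference of all members. It was 11.01, 11.05 and 11.09 in the arrays labelled Lxn-/-, against 11.20, 11.46 and 11.07 in WT, a difference of -0.19 (SE 0.11, adjusted p of 0.414 in limma). The groups overlapped, with WT array 3 inside the Lxn-/- range and WT array 2 far above it. Without WT array 2 the difference was -0.08, and without WT array 3 it was -0.28 (adjusted p of 0.466). Srebf1, which encodes the SREBPs of fatty acid and sterol genes, was 9.70, 9.52 and 9.52 in the arrays labelled Lxn-/-, against 9.48, 9.73 and 9.50 in WT, a difference of 0.01 (SE 0.10).

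Insig1, both a retainer and a target of SREBP, was 10.23, 10.28 and 10.80 in the arrays labelled Lxn-/-, against 10.37, 10.68 and 10.26 in WT. The difference was 0.00 (SE 0.17), with the widest standard error of the members. Array 3 labelled Lxn-/- was the highest of the 6 and array 1 the lowest, so the means were equal to 2 decimals while the arrays within the group differed by more than 0.5. Stard4, a cytosolic sterol carrier, was 8.87, 9.11 and 9.04 in the arrays labelled Lxn-/-, against 9.15, 9.36 and 8.88 in WT, a difference of -0.12 (SE 0.13, adjusted p of 0.628 in limma). Its highest value was again WT array 2, and without that array the difference was -0.01.

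The largest common movement of these genes lay within the WT group. WT array 2 was the highest of the 3 WT arrays for 23 of the 29 members, against 45.0% of all features. This count covers 16 of the 17 sterol enzymes, all 4 regulators and carriers, and 3 of the 8 fatty acid enzymes. Of the sterol enzymes, Ebp alone had its highest WT value in another array. The array was named after the values were seen, and the difference between these shares was not tested. WT array 2 exceeded the mean of WT arrays 1 and 3 by a median of 0.28 for the sterol enzymes, 0.34 for the regulators and carrier and 0.07 for the fatty acid enzymes, beside 0.04 for all features. The largest gaps were 0.48 for Lss, 0.47 for Scd1, 0.47 for Mvd, 0.47 for Sqle and 0.43 for Fdps, and the gap was 0.37 for Insig1 and 0.33 for Srebf2. WT array 3 was the lowest WT array for 21 of the 29 members, or 72.4%, against 35.7% of all features.

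The median gap of 0.28 for the sterol enzymes stood beside a median group difference of 0.05, and that of 0.07 for the fatty acid enzymes beside 0.08. The 3 members whose groups did not overlap had gaps of -0.03 for Ebp, 0.04 for Msmo1 and 0.01 for Nsdhl. At such small differences, groups that do not overlap need WT values close together. Small gaps in these 3 thus follow from how they were picked. Relative to the WT mean, the median sterol enzyme was at 0.09, -0.04 and 0.07 in arrays 1, 2 and 3 labelled Lxn-/-, against -0.04, 0.18 and -0.15 in the WT arrays. All 3 arrays labelled Lxn-/- thus lay between WT arrays 2 and 3. The fatty acid enzymes were at 0.13, 0.05 and 0.06 in the arrays labelled Lxn-/-, against 0.04, 0.04 and -0.12 in WT, and the regulators and carrier at -0.22, -0.10 and -0.07, against -0.06, 0.23 and -0.18 in WT. The SD over arrays was larger in WT than in the arrays labelled Lxn-/- for 11 of 17 sterol enzymes, 5 of 8 fatty acid enzymes and 3 of 4 regulators and carriers, against 41.9% of all features. Without WT array 2 the sterol median was 0.14, the fatty acid median 0.15 and that of the regulators and carrier 0.04, with 0 members passing in limma, where the smallest adjusted p over all features was 0.592.

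Other gene lists differed in the same WT array. WT array 2 was the highest WT array for all 6 granulocyte markers (Elane, Mpo, Ngp, Ltf, S100a8 and S100a9), by a median of 0.44 over the mean of the other WT arrays. Relative to the WT mean their median was -0.11, 0.25 and 0.31 in the arrays labelled Lxn-/-, against -0.27, 0.30 and 0.01 in WT. WT array 2 was the highest for all 4 measured lymphocyte, all 3 megakaryocyte and both erythroid markers, and for 3 of 5 macrophage markers. The count was 1 of 3 gate markers, 3 of 7 stress genes and 0 of 13 growth genes (replication and ribosome biogenesis). The median gap of the growth genes was -0.15. These short lists stand beside 45.0% of all features and 38.5% of those above the median level. The lymphocyte and erythroid markers all lie below that level. Elane was 11.43, 11.83 and 12.46 in the arrays labelled Lxn-/-, against 11.93, 12.52 and 11.48 in WT. The lymphocyte genes Cd79a, Cd3e, Cd3g and Ms4a1 lay between 5.68 and 7.91 in all arrays. Of the macrophage markers, Csf1r and Cd68 had differences of 0.50 (SE 0.14) and 0.32 (SE 0.12), and C1qb and C1qa of -0.50 (SE 0.15) and -0.27 (SE 0.11), arrays labelled Lxn-/- minus WT. The part of these cells in the sterol gene values was not tested. The growth genes had a higher mean in the arrays labelled Lxn-/- for 13 of 13, against 42.2% of all features. The share was 69.3% for features above the median level, where all 13 lie. Their median difference was 0.21, against 0.05 for the sterol enzymes and 0.07 for the features above the median level. The 7 measured stress genes had medians of 0.63, -0.08 and 0.77 relative to the WT mean in the arrays labelled Lxn-/-, with Hspa1a at 10.32, 8.80 and 11.33 in those arrays against 8.41, 8.19 and 8.20 in WT. The part of the growth and stress genes in the values of the members was not tested.

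**Figure D3:**
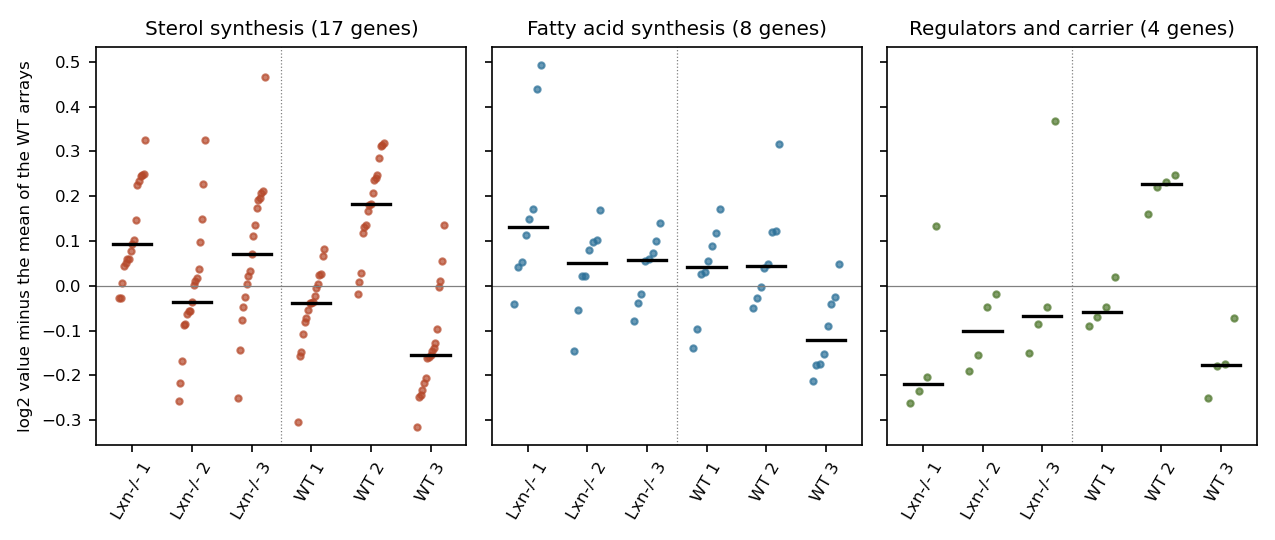
Each gene's log2 value minus its mean over the WT arrays, by array, for the sterol enzymes, the fatty acid enzymes, and the regulators and carrier; points are genes and black bars are medians. Sterol genes and regulators sit highest in WT array 2 (medians 0.18 and 0.23) and low in WT array 3 (-0.15 and -0.18), with the arrays labelled Lxn-/- between them for the sterol enzymes.

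Further genes of the same pathways were read from lists of 60 genes, of which 48 were measured. None passed after adjustment, and 5 had an unadjusted p under 0.05, or 10.4%, against the 14.3% of all features. All 5 belong to the 27 measured genes of fatty acid supply, elongation and desaturation, 4 higher and 1 lower. Hacd2 and Hacd3, dehydratases of the elongation cycle, had the clearest separation. Hacd2 was 10.82, 10.79 and 10.89 in the arrays labelled Lxn-/-, against 10.61, 10.45 and 10.53 in WT, a difference of 0.30 (SE 0.09). Hacd3 was 9.68, 9.67 and 9.66 in the arrays labelled Lxn-/-, against 9.54, 9.16 and 9.30 in WT, a difference of 0.33 (SE 0.11). Neither gene's groups overlapped, which held for 7 of the 48 measured genes, Fads3 among them, against 21.6% of all features. Both Hacd2 and Hacd3 had an adjusted p of 0.340 in limma. The other feature of Hacd2 had a difference of 0.16 (SE 0.09) and an adjusted p of 0.402.

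The fatty acid desaturase genes Fads2 and Fads3 were also higher on average. Fads3 was 10.09, 9.54 and 9.77 in the arrays labelled Lxn-/-, against 9.51, 9.30 and 9.33 in WT, a difference of 0.42 (SE 0.14). Fads2, whose enzyme starts the conversion of linoleic acid to longer polyunsaturated acids, was 11.20, 10.70 and 10.97 in the arrays labelled Lxn-/-, against 10.73, 10.55 and 10.44 in WT, a difference of 0.38 (SE 0.14). In both genes array 2 labelled Lxn-/- was the lowest of its group. Without both arrays with Y-linked signal the difference was 0.13 for Fads2 and 0.16 for Fads3, and without array 1 labelled Lxn-/- alone that of Fads3 was 0.27. Their neighbour Fads1, the desaturase of the next step, had a difference of 0.05 (SE 0.11). Acss2, which makes acetyl-CoA from acetate, was 8.72, 9.44 and 8.92 in the arrays labelled Lxn-/-, against 9.27, 9.80 and 9.59 in WT. Its difference of -0.53 (SE 0.19) was the largest of the lists. Arrays 1 and 3 labelled Lxn-/-, those with Y-linked signal, were the lowest of the 6, and without them the difference was -0.11. The adjusted p of Fads2, Fads3 and Acss2 was 0.340 each in limma.

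In the other lists no gene had an unadjusted p under 0.05. Of the 2 measured genes of other sterol steps, Ggps1, a synthase of the geranylgeranyl branch, had a difference of 0.15 (SE 0.10), and Erg28, a scaffold of the demethylating enzymes, of -0.01 (SE 0.09). Of 12 genes of sterol uptake, storage and efflux, 6 had a higher mean, against 42.2% of all features and 69.3% of those above the median level. The largest statistics were those of the lipoprotein receptor gene Scarb1, 0.20 (SE 0.11), and of the sterol transfer gene Gramd1b, -0.24 (SE 0.14). The efflux pumps Abca1 and Abcg1 had -0.14 (SE 0.14) and -0.16 (SE 0.11). Of 7 genes of SREBP processing, 5 had a higher mean, beside the same shares of 42.2% and 69.3%. Scap, the escort of SREBP, had 0.02 (SE 0.10), while Lpin1 and Insig2 had -0.22 (SE 0.18) and -0.16 (SE 0.15). In Lpin1 and Insig2 the lowest value of the 6 was array 1 labelled Lxn-/-, at 8.54 and 8.40.

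**Figure D4:**
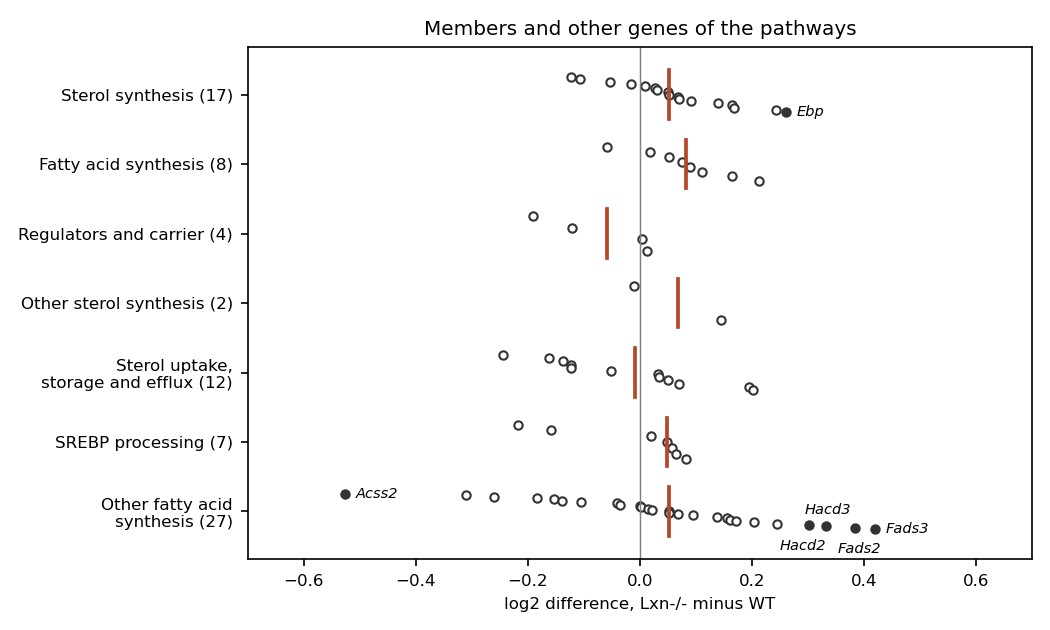
Log2 difference, arrays labelled Lxn-/- minus WT, of the members (top 3 rows) and of other genes of the same pathways (bottom 4 rows, numbers of measured genes in brackets); filled points have an unadjusted p under 0.05 in limma and coloured bars are medians. The filled points are Ebp among the members and Acss2, Fads2, Fads3, Hacd2 and Hacd3 among the others, none of which passed after adjustment.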

How the data were processed

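Arrays of the type MoGene 1.0 ST (Affymetrix) measured RNA, 100 ng a sample, from 3 Lxn-/- and 3 WT pools of multipotent progenitors. The authors deposited 1 table of log2 values made with RMA, per the series text, and the submitters' processing notes also name Partek 6.0. That the scale is log2 was judged from the deposited values, which span 2.93 to 14.78. RMA settings were not stated, and RMA hides differences in total RNA per cell. Sample titles gave the groups and the replicate numbers. Each array is a pool of its own, so p-values measure the spread between pools.

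Gene names came from the platform's annotation table, updated by Entrez identifier in RefSeq's GRCm38.p6 table. All 23410 features with at least 1 symbol entered 1 two-group model (limma 3.58.1, R 4.3.3, lmFit and eBayes, two-sided). The Benjamini-Hochberg method adjusted p over all of these features, with a threshold of 0.05. The script was tested on simulated data first. Idi1, Fdft1, Acaca and, of the wider lists, Hacd2 are among the genes with several features, and the brightest by mean over the 6 arrays was used. The members and lists were chosen with earlier results of these data known, so lists are described by counts and medians beside all features. By rule, array values are given for members with an unadjusted p under 0.05, non-overlapping groups or the 2 largest statistics of a role group. Array values of other members were added after they were seen. Alternatives covered scaling, feature choice, variance model, replicate block and arrays left out. Figures were drawn with matplotlib 3.10.9.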

Additional observations from a re-analysis of the deposited data

How the results depend on the processing

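The comparison was repeated under 15 alternatives, and the number of members with an adjusted p under 0.05 in limma was 0 in each, beside 1 member with an unadjusted p under 0.05. The number at the unadjusted threshold was 2 with median centring and 3 with array weights, and 1 to 2 with each array left out. The number of members with a higher mean was 13 with quantile normalization and 14 with both arrays of Y-linked signal left out, and 13 to 25 with each array left out. With each array left out, the median difference ran from -0.03 to 0.14 for the sterol enzymes, from 0.04 to 0.15 for the fatty acid enzymes and from -0.17 to 0.04 for the regulators and carrier. Of 180 values of single named genes, 179 kept their direction and their side of the threshold, and Nsdhl turned to -0.016 with quantile normalization. The replicate block, the other variance model and the 2 wider or narrower choices of tested features leave each difference as it was. Direction could not change under these alternatives, so the 179 overstates how far it was put to a test. Srebf2 and not Ebp had the unadjusted p under 0.05 with quantile normalization, and Idi1 and not Ebp without Lxn-/- replicate 2. Over all features 0 passed after adjustment, 145 without Lxn-/- replicate 2 and at most 3 under the other alternatives. At an unadjusted p under 0.05, 1185 of 3346 features were higher, against 2190 of 3129 with median centring and 863 of 1812 with quantile normalization. The cause of these changes was not tested, and without Lxn-/- replicate 2 only arrays with Y-linked signal stood for that label. Same-numbered arrays shared little deviation across features (correlations 0.076, -0.008 and -0.006), which does not settle whether the samples were paired. With the replicate block 0 members passed. Each replicate number holds 1 array of each group, so the block cannot change a fitted difference. The medians of 0.05, 0.08 and -0.06 and the 22 members with a higher mean were therefore fixed by the design. Tests without both arrays of Y-linked signal assume that the lone Lxn-/- array varies like WT. Median centring moved the median of all features by 0.06, and quantile normalization by 0.03. The number of members with an interval inside 1.5-fold was 29, and 24 to 29 under the alternatives. Signal over background is unknown because no detection values were used.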
